A study of Mus musculus with 2 samples.

Results

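Muscle-transcript-rich barcodes are the cell barcodes of a myeloid cell sort that also carried RNA of contractile muscle genes. They were chosen by measured values: at most 20% of UMIs (unique molecular identifiers, counted transcripts) from mitochondrial genes, at least 20 UMIs per 10000 from *Acta1*, *Mylpf*, *Myog*, *Actc1* and *Myh3* together (below, the 5 rule genes), and at most 4 UMIs from the collagen genes *Col1a1*, *Col3a1* and *Col1a2* together. The rule found 137 members among 6724 barcodes. They were 27 of 3434 barcodes in the Gata3KO library and 110 of 3290 in the Wt library. Because the rule selected on these genes, their high level in members is a description and no finding.

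The Gata3KO library came from C57BL/6:Cx3cr1CRExGata3fl/fl mice, in which Cre recombinase expressed from the *Cx3cr1* locus deletes floxed *Gata3* wherever *Cx3cr1* is active, as in macrophages and monocytes. The Wt library came from C57BL/6 mice. In both, the tibialis anterior, a muscle of the lower leg, had been injected with 50 µl of 10 µM cardiotoxin, a snake venom toxin that destroys muscle fibres, and cells were taken on day 4. Live cells (Zombie aqua-) with CD45 and CD11b and without the neutrophil marker Ly6G were sorted, and 8000 cells per library went into droplet sequencing of transcript 3' ends. No Cre-only or floxed-only control is among the libraries, how many animals each library holds is not given in the sources used here, and with 1 library per genotype no difference has a replicate check. Differences between the libraries cannot be told apart from differences between animals or preparations, so intervals cover counting error only, at the 95% level.

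Injured skeletal muscle rebuilds itself from satellite cells, stem cells marked by *Pax7*. These become myoblasts with *Myf5* and *Myod1*, leave the cell cycle, switch on *Myog* and become myocytes that fuse into new fibres. New fibres first use developmental sarcomere proteins, among them the embryonic myosin *Myh3* and the cardiac actin *Actc1*, and later change to adult fast isoforms. Over the same days macrophages enter the muscle and engulf the dead fibres, so RNA of a muscle gene in a sorted droplet may belong to a myocyte, to engulfed fibre material, to a pair of cells in 1 droplet or to free RNA. Which of these holds for a given barcode was not tested; the values below describe how much muscle and how much myeloid RNA each barcode carried.

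*Acta1* encodes skeletal muscle actin (mm10, chromosome 8, 123891769 to 123894751, minus strand, ENSMUSG00000031972). *Mylpf* encodes the fast regulatory myosin light chain (chromosome 7, 127208890 to 127214298, plus strand, ENSMUSG00000030672). *Myog* encodes the transcription factor myogenin (chromosome 1, 134289989 to 134292548, plus strand, ENSMUSG00000026459). *Actc1* lies on chromosome 2 at 114047282 to 114053548 on the minus strand (ENSMUSG00000068614), and *Myh3* on chromosome 11 at 67078300 to 67102291 on the plus strand (ENSMUSG00000020908). The giant sarcomere protein titin, *Ttn*, which the rule did not use, lies on chromosome 2 at 76703980 to 76982547 on the minus strand (ENSMUSG00000051747).

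The myogenic factors of the MyoD family, myogenin among them, bind E-box sequences in muscle promoters. Below are the 250 bases before the start of the 2 most abundant rule genes and of *Chrna1*, the muscle acetylcholine receptor subunit (RefSeq, GRCm38.p6), because they show the E-box CAGCTG, in capitals, which these 3 windows share. Coordinates are of the printed bases, which are written 5′ to 3′ on the gene's strand; RefSeq starts the *Mylpf* transcript inside the gene bounds given above.
Acta1, chr8:123894776-123895025, minus strand: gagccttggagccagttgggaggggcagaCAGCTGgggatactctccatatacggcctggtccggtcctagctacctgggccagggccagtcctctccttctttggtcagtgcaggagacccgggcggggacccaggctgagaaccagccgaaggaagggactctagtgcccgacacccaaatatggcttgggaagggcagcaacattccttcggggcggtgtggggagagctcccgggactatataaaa
Mylpf, chr7:127211358-127211607, plus strand: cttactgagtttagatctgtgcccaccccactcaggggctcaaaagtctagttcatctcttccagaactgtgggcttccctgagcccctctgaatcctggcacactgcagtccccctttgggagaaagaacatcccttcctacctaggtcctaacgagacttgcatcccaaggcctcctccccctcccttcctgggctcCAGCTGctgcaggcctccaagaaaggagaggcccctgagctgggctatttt
Chrna1, chr2:73580339-73580588, minus strand: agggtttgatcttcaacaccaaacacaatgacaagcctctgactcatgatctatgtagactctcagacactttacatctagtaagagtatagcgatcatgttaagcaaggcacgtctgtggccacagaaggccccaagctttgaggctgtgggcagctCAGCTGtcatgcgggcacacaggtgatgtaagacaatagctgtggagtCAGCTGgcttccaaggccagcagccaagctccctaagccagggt
The first base of the match lay 221 bases before the start in *Acta1*, 51 in *Mylpf*, and 92 and 44 in *Chrna1*. CAGCTG is its own reverse complement, so 1 search covers both strands. Of 92 rule and panel muscle genes, 65 have a window in the RefSeq table, and 26 of these (40%) hold the motif, against 3979 of 27025 genes of the table (14.7%) and 4 of 15 myeloid genes (26.7%). The windows of *Myog*, *Actc1*, *Myh3*, *Ttn* and *Lyz2* do not hold these letters. A match is a description of the sequence and says nothing of binding in these cells.

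The Gata3KO library listed 19422237 UMIs over 13755 genes (median 3059 UMIs per barcode) and the Wt library 15392330 UMIs over 13905 genes (median 2616). Mitochondrial genes exceeded 20% of UMIs in 1935 Gata3KO and 1250 Wt barcodes, and 9 and 18 further barcodes exceeded the collagen limit, which left 1490 Gata3KO and 2022 Wt barcodes that the muscle threshold could divide (below, eligible barcodes). The libraries had 2 barcode sequences in common, and no member was among them. *Gata3* itself could not check the genotype: it had 0 UMIs in Gata3KO members and 1 in Wt members, and 5 UMIs in the other eligible barcodes of each library.

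Members made up 1.81% of eligible Gata3KO barcodes (exact binomial interval 1.20 to 2.63%) and 5.44% of eligible Wt barcodes (4.49 to 6.52%). The difference was -3.63 percentage points (-4.84 to -2.41), and it stayed below 0 at each setting tried, between -0.74 and -8.11 points. Members were shallower than the other eligible barcodes: they had a median of 3075 UMIs against 4651 in the Gata3KO library, and 2568 against 3454.5 in the Wt library. Their median mitochondrial share was 16.6% against 11.5% in Gata3KO and 13.3% against 10.1% in Wt, so members lay closer to the mitochondrial limit than the rest. The part of depth and of mitochondrial share in the values below was not tested.

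The level of the 5 rule genes varied widely among members. In Gata3KO members it ran from 20.1 to 198 UMIs per 10000 with a median of 41.75, and in Wt members from 20.1 to 470.3 with a median of 35.3. As counts this was a median of 15 UMIs per Gata3KO member (3 to 101) and 9 per Wt member (2 to 447), and 3 Gata3KO and 23 Wt members entered on 5 or fewer UMIs. Their number fell with the level: 15 Gata3KO members had 20 to 50 per 10000 and 12 had 50 to 200, while 74 Wt members had 20 to 50, 29 had 50 to 200 and 7 had over 200. At the threshold itself, 2 Gata3KO and 15 Wt members lay between 20 and 22 per 10000, and 3 Gata3KO and 15 Wt barcodes fell just short of it, between 18 and 20. The other eligible barcodes averaged 0.819 per 10000 in Gata3KO and 1.975 in Wt.

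**Figure D1:**
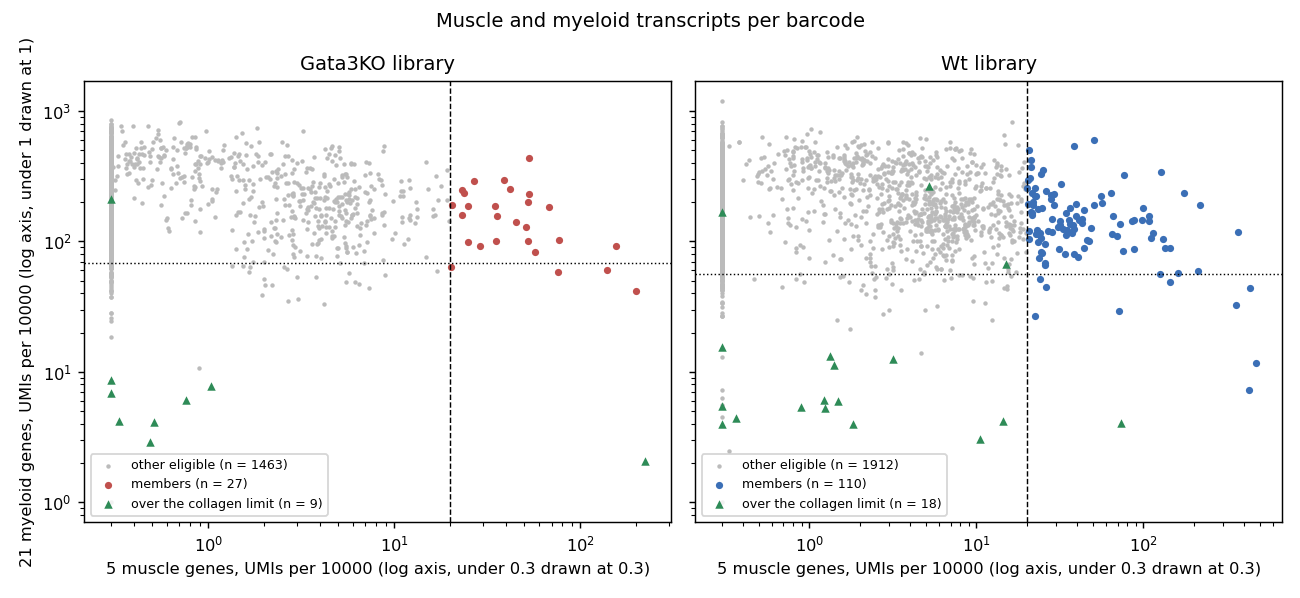
Each point is a barcode, with UMIs per 10000 of the 5 muscle genes of the rule on the x axis and of 21 myeloid genes on the y axis (both log axes), for the Gata3KO library (left) and the Wt library (right). Members are coloured, other eligible barcodes grey and barcodes over the collagen limit triangles. Most members overlap the other barcodes in height, and a few with the most muscle RNA lie far below them, 4 of the 7 Wt members above 200 per 10000 among the low ones.

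Muscle genes that the rule did not use went with those it did. A panel of 87 such genes had a median of 55.8 UMIs per 10000 in Gata3KO members against 2.31 in the other eligible Gata3KO barcodes, and 51.7 in Wt members against 4.02 in the other Wt barcodes. Barcodes just short of the threshold, at 10 to 20 per 10000, lay between, with medians of 20.2 in 32 Gata3KO barcodes and 18.9 in 134 Wt barcodes. The panel comes from the same barcodes as the rule, so this too is a description.

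All members also had UMIs of myeloid genes. Each of them, 27 of 27 in Gata3KO and 110 of 110 in Wt, had UMIs of 21 myeloid identity genes. Among these genes are the macrophage lysozyme *Lyz2*, the receptor *Csf1r* and the complement genes *C1qa*, *C1qb* and *C1qc*. Barcodes over the collagen limit all had such UMIs too, at least 6 in Gata3KO and 5 in Wt. Having any therefore does not set members apart. The fewest in a member were 14 UMIs in Gata3KO and 2 in Wt. The median level of the 21 genes was 157 per 10000 in Gata3KO members (42.0 to 436) against 224 in the other eligible barcodes. In Wt members it was 136 (7.24 to 599) against 166. The sort genes *Ptprc* (CD45) or *Itgam* (CD11b) had a UMI in 25 of 27 Gata3KO members, against 1372 of 1463 other barcodes, and in 92 of 110 Wt members, against 1741 of 1912; *Ly6g* is in neither table. Panel muscle UMIs outnumbered myeloid UMIs in 5 of 27 Gata3KO members and 20 of 110 Wt members, against 1 and 8 of the other eligible barcodes.

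**Figure D2:**
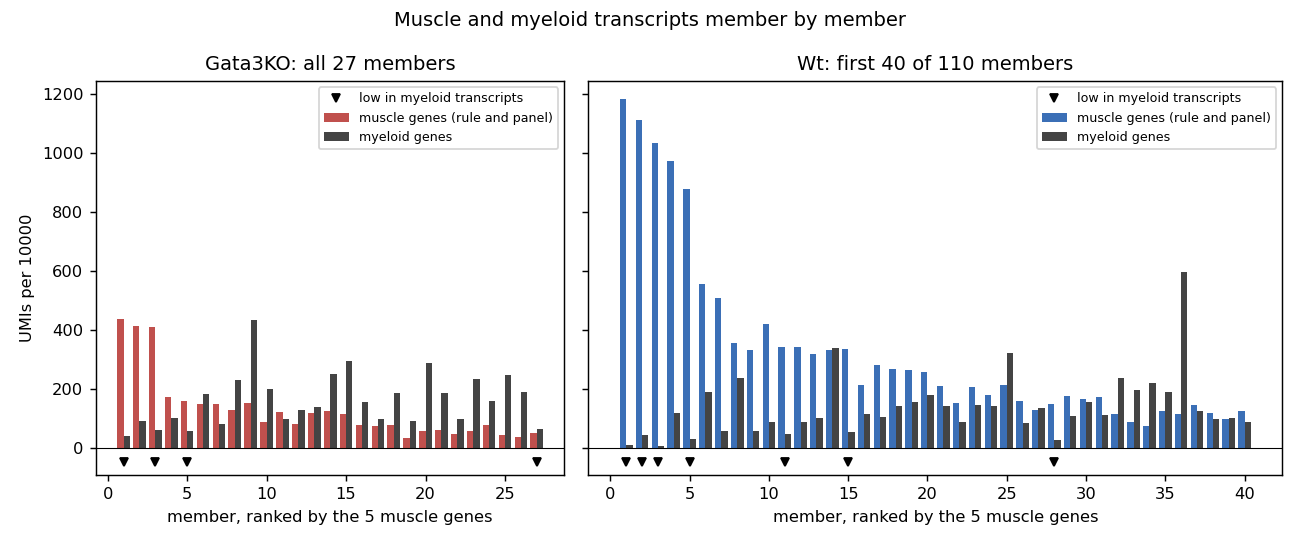
Bars give UMIs per 10000 of the muscle genes (rule and panel together, coloured) and of the 21 myeloid genes (dark) in each member, ranked by the 5 rule genes, for all 27 Gata3KO members (left) and the first 40 of 110 Wt members (right). Triangles mark members low in myeloid transcripts. The myeloid bar is present in every member, and it is smallest in several of the first-ranked Wt members.

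To ask which members lacked a myeloid profile, a member was called low in myeloid transcripts when the 21 genes together fell under the 5th percentile of the other eligible barcodes of its library, which was 68.7 per 10000 in Gata3KO and 56.65 in Wt. By this measure 4 of 27 Gata3KO members were low (14.8%, interval 4.19 to 33.7%) and 10 of 110 Wt members (9.09%, 4.45 to 16.1%), against 5.06% and 5.02% of the other barcodes by construction. Low members were found at every muscle level and took the greatest share in the highest band, over few barcodes. In Gata3KO they were 1 of 15 at 20 to 50 per 10000 and 3 of 12 at 50 to 200; in Wt they were 3 of 74, 3 of 29 and, above 200, 4 of 7. The intervals of both shares cover the background share, and 4 Gata3KO and 7 Wt members lay near the percentile.

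The low members were of different kinds. In the first, muscle RNA was abundant and RNA of the nuclear RNA genes, named in the next paragraph, mostly was not. The Wt member with the most rule-gene UMIs held 9505 UMIs over 2459 genes. Of its UMIs, 148 were *Acta1*, 154 *Mylpf*, 79 *Actc1*, 34 *Myh3* and 32 *Myog*. It had 680 panel UMIs, 11 myeloid UMIs, 6 of them *Lyz2*, and no UMI of *Ptprc* or *Itgam*. The next Wt member held 250 rule-gene and 387 panel UMIs beside 25 myeloid UMIs in 5721, 5 of them *Lyz2* and 2 *Ptprc*. It had 10 UMIs of *Chrna1* and 5 of *Mymk*, the muscle fusogen myomaker. The Wt member ranked after it held 119 rule-gene and 167 panel UMIs and 2 myeloid UMIs in 2763, and no *Lyz2*. The leading Gata3KO member held 99 rule-gene UMIs, 14 of them *Myog*, 121 panel UMIs, 3 of *Mymk* and 2 of *Chrna1*. Beside these it held 21 myeloid UMIs in 5002, 5 of them *Lyz2* and 1 *Ptprc*. These 4 barcodes carried *Myog* and *Chrna1* with 7.24 to 43.7 myeloid UMIs per 10000. Another low Wt member with abundant muscle RNA, 231 rule-gene and 332 panel UMIs beside 21 myeloid UMIs in 6406, had 1 UMI of *Myog* and none of *Myh3*, *Chrna1* or *Mymk*. Its share of the nuclear RNA genes was higher, at 31.3%, with 1835 UMIs of *Gm42418* and 121 of *Malat1*. Over all low members, *Ptprc* had a UMI in 4 of 4 in Gata3KO and 3 of 10 in Wt.

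In the other kind, muscle RNA was less abundant than in the first. Much of the RNA came from *Malat1*, *Neat1*, *Gm42418*, *AY036118* and *Lars2*, here called nuclear RNA genes, of which *Gm42418* and *AY036118* overlap ribosomal RNA sequence. These genes took 53.6, 60.8, 63.1 and 70.1% of UMIs in 4 of the 10 low Wt members, whose rule genes reached 22.5 to 71.4 per 10000, and 45.2 and 57.6% in 2 of the 4 low Gata3KO members, whose rule genes reached 76.0 and 20.1 per 10000. The levels of 76.0 in Gata3KO and 71.4 in Wt lay above the upper quartiles of all members, 54.95 and 70.9. Most UMIs of the nuclear RNA genes were *Gm42418* and not *Malat1*. The Wt member at 70.1% held 3210 UMIs of *Gm42418* and 163 of *Malat1*, and the Gata3KO member at 57.6% held 2748 and 81. The share of the nuclear RNA genes was 1.09% in the leading Wt member and 5.38% in the leading Gata3KO member. The other low members lay between or near these, at 8.64% in 1 Gata3KO member and 16.6 and 22.5% in 2 of the Wt members. The median over low members was 26.9% in both libraries, against 10.4% in the other Gata3KO barcodes and 14.0% in the other Wt barcodes. With nuclear RNA and mitochondrial genes out of the denominator, low members were 11.1% in Gata3KO and 7.27% in Wt.

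Per 10000 UMIs, the deepest members were not those richest in muscle RNA. The deepest Gata3KO member, with 19111 UMIs and 4273 genes, held 101 rule-gene UMIs (52.85 per 10000) beside 834 myeloid UMIs (436 per 10000), 360 of them *Lyz2*. In counts its 101 rule-gene and 190 panel UMIs were the most of any Gata3KO member. The deepest Wt member, with 23282 UMIs, held 20.6 per 10000 of the rule genes beside 504.3 per 10000 of the myeloid genes and 224 UMIs of *Lyz2*. Both therefore had a full myeloid profile with a small muscle part. No doublet caller was run, and the part of droplets with more than 1 cell was not tested.

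Summed over members and scaled to a common total (CPM, a scaled count not divided by gene length because each transcript gives 1 tag at its 3' end), *Acta1* stood at 2176.5 CPM in Gata3KO members (242 UMIs in 26 of 27 barcodes) and 3019 CPM in Wt members (1070 UMIs in 104 of 110), against 29.7 and 78.7 CPM in the other eligible barcodes. *Mylpf* stood at 1969.6 and 3084 CPM (27 and 102 barcodes), *Actc1* at 710.5 and 1117 CPM (23 and 82), *Myog* at 378 and 468 CPM (12 and 56) and *Myh3* at 98.9 and 186 CPM (6 and 27). The 2 structural genes were thus in nearly all members, while the regulator *Myog* had a UMI in fewer than either. *Ttn*, outside the rule, stood at 216 CPM in 16 Gata3KO members and 189 CPM in 33 Wt members, against 11.2 and 17.0 CPM in the other barcodes. Collagen UMIs allowed by the rule numbered 7 in 5 Gata3KO members and 17 in 16 Wt members.

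Among developmental sarcomere genes, the embryonic light chain *Myl4* stood at 665.5 CPM in Gata3KO and 858 CPM in Wt members, the cardiac troponin T *Tnnt2* at 449.7 and 624 CPM, the slow troponin I *Tnni1* at 369 and 477 CPM and the slow and cardiac troponin C *Tnnc1* at 243 and 494 CPM. Adult fast fibre genes were present beside them: the fast troponins *Tnnt3* at 710.5 and 770.3 CPM, *Tnnc2* at 692.5 and 1179 CPM and *Tnni2* at 306 and 536 CPM, and the muscle enolase *Eno3* at 396 and 398 CPM. Some genes of mature fibres were scarce. The fast myosins *Myh1* and *Myh4* had 2 and 3 UMIs in Gata3KO and 27 and 6 in Wt members, *Pvalb*, a calcium buffer of fast fibres, 0 and 2, the calcium pump *Atp2a1* 0 and 20, and dystrophin (*Dmd*) 0 and 1. *Myh2* and *Myh7* are in neither table. Sarcomere genes used at any stage were led by *Myl1* (612 and 1044 CPM), *Tpm2* (576 and 861 CPM), *Tpm1* (459 and 880.3 CPM) and *Des* (306 and 474 CPM). How reads shared by near-identical actin, troponin and myosin genes were counted is not given in the sources used here.

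Genes of fusion and of the myoblast stage were fewer. *Mymx*, which with *Mymk* drives myoblast fusion, had 19 UMIs in Gata3KO and 63 in Wt members, *Mymk* 8 and 17, *Chrna1* 4 and 30, and the receptor-clustering protein *Rapsn* 2 and 25. *Myod1* had 13 UMIs in 6 Gata3KO members and 37 in 21 Wt members. *Myf5* had 1 UMI in each library's members, *Pax7* had 0 in both, and *Calcr* is in neither table, so genes of quiescent satellite cells were at or near 0. The imprinted RNA *H19*, abundant in regenerating muscle, stood at 216 CPM in 15 Gata3KO members and 660.2 CPM in 64 Wt members, against 11.7 and 38.7 CPM in the other barcodes.

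Low members held more RNA of the muscle lists, the early ones among them but not these alone. Fusion and nerve contact genes stood at 1844.5 CPM in low Gata3KO members against 157 CPM in Gata3KO members that were not low, and at 1278 against 357 CPM in Wt. Satellite cell and myoblast genes stood at 572 against 62.85 CPM in Gata3KO and 271 against 109 CPM in Wt. As a share of panel muscle UMIs the libraries went different ways: fusion genes were 12.7% in low Gata3KO members (8.69 to 17.75%) against 2.355% in those not low (1.32 to 3.85%), with 20 of the 29 UMIs in 1 barcode, and 3.76% in low Wt members (2.92 to 4.75%) against 4.71% (3.88 to 5.66%). Satellite cell and myoblast genes were 3.95% in low Gata3KO members against 0.94%, with 6 of the 9 UMIs in the same barcode. In Wt they were 0.80% in low members against 1.44%. In Wt the larger lists had close shares, with developmental genes at 23.5 against 22.5%, adult genes at 32.0 against 31.8% and sarcomere genes at 37.0 against 36.1%. Low members were 4 and 10 barcodes, and they were chosen for their low myeloid level, so no test was made.

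**Figure D3:**
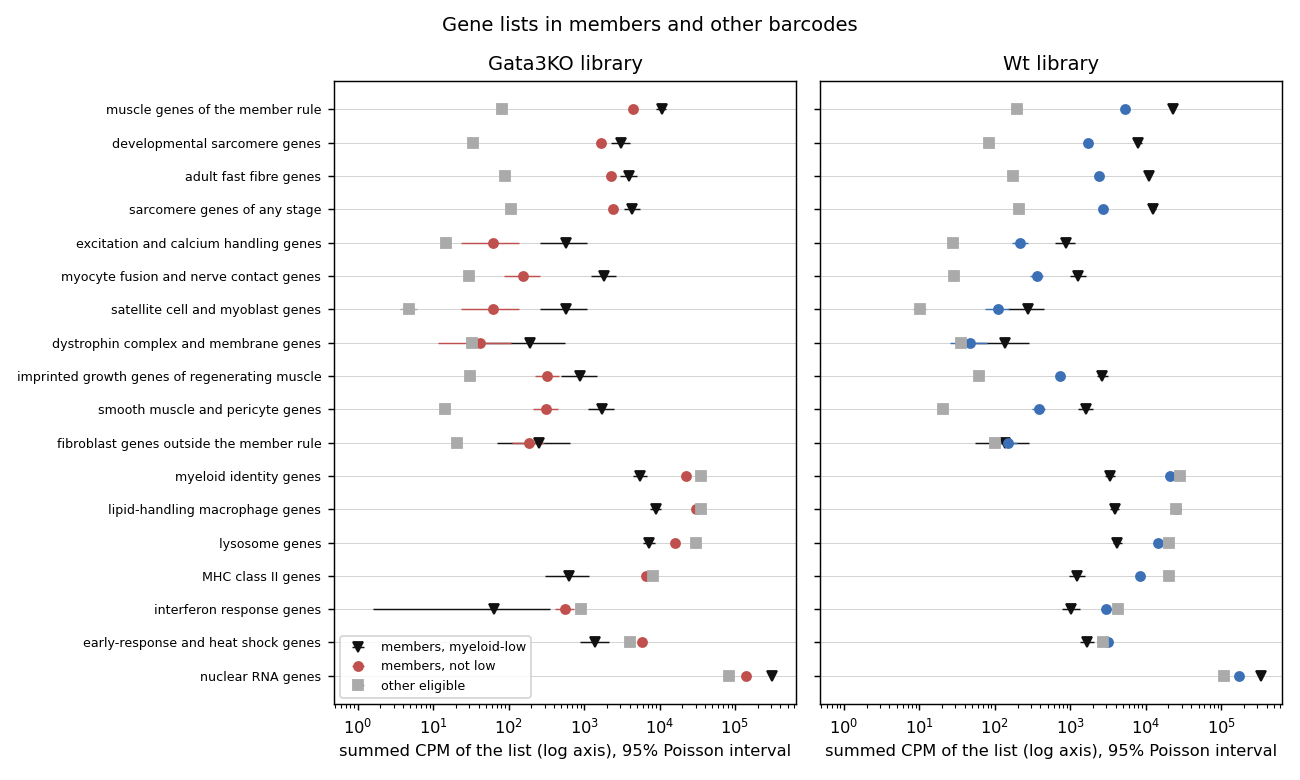
Points give the summed CPM of 18 gene lists (log axis) with exact Poisson intervals, in members low in myeloid transcripts, members not low and other eligible barcodes, for the Gata3KO library (left) and the Wt library (right). Muscle lists run highest in low members; myeloid, lipid-handling and lysosome lists run lowest there, while members that were not low lie nearer to the other barcodes in these lists.

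Shares of the rule genes were set beside those of the other eligible barcodes and of barcodes over the mitochondrial limit. In Wt, both groups lay outside the members' intervals for *Myog*, *Actc1* and *Myh3*. In Gata3KO, only the other eligible barcodes did so for *Myog* and *Myh3*, and neither group for *Actc1*. For *Acta1*, the other eligible Gata3KO barcodes and the Wt barcodes over the mitochondrial limit lay just under the members' intervals. *Acta1* was 40.8% of their UMIs in Gata3KO members (36.8 to 44.9%) against 36.2% in the other eligible barcodes and 38.2% in barcodes over the mitochondrial limit, and 38.3% in Wt members against 39.85% and 36.35%. *Myog* was 7.08% in Gata3KO members (5.15 to 9.45%) against 11.9% and 9.10%, and 5.95% in Wt members (5.10 to 6.89%) against 8.20% and 9.11%. *Actc1* was 14.2% in Wt members (12.9 to 15.5%) against 9.14% (7.97 to 10.4%) and 10.0%, and 13.3% in Gata3KO members against 11.98% and 13.5%. *Myh3* was 1.855% in Gata3KO members (0.93 to 3.295%) against 4.43% and 3.11%, and 2.365% in Wt members (1.83 to 2.999%) against 3.602% and 4.685%. In barcodes over the collagen limit the proportions were others: *Myog* was 28.85% in Gata3KO and 39.6% in Wt, and *Acta1* 28.1% and 18.1%. The *Acta1* and *Myog* shares of members thus lay nearer to those of the other eligible barcodes than to those of barcodes over the collagen limit, where in Gata3KO 1 barcode held 1818 of the rule-gene UMIs.

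**Figure D4:**
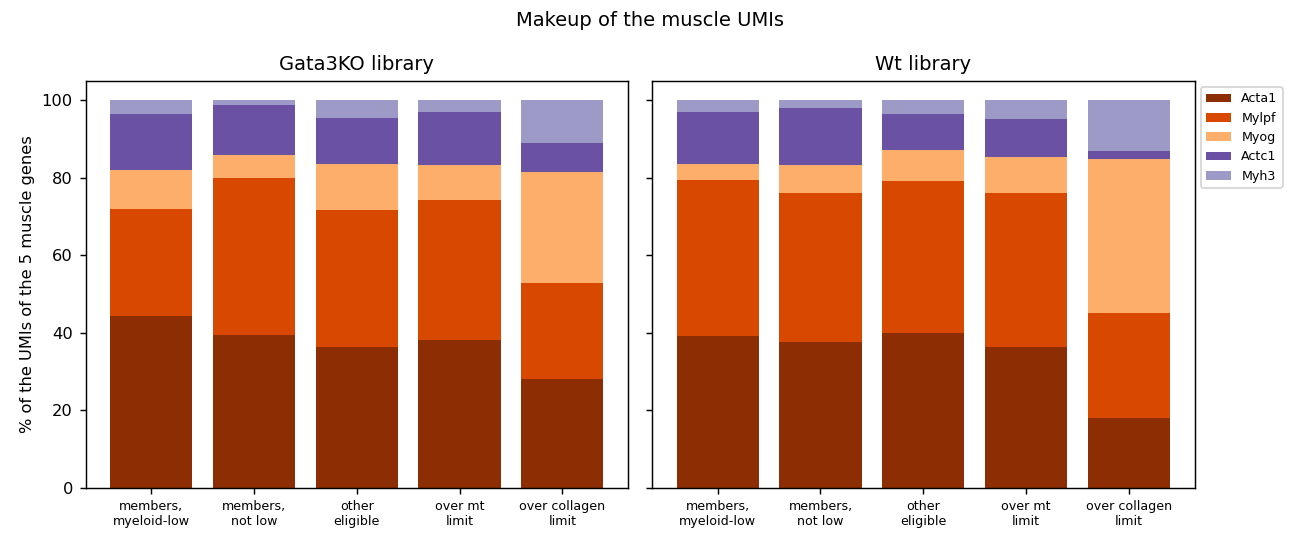
Stacked bars give the share of each of the 5 rule genes in their summed UMIs, in % of UMIs, in low members, members not low, other eligible barcodes, barcodes over the mitochondrial limit and barcodes over the collagen limit, for the Gata3KO library (left) and the Wt library (right). The *Myog* and *Myh3* parts are largest in barcodes over the collagen limit, where *Myog* is 28.85% in Gata3KO and 39.6% in Wt.

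Developmental genes weighed more against adult genes in members than in the other eligible barcodes. The log2 ratio of developmental to adult UMIs was -0.40 in Gata3KO members (-0.67 to -0.14; 209 developmental and 276 adult UMIs) against -1.38 in the other eligible barcodes (-1.55 to -1.22), and -0.47 in Wt members (-0.60 to -0.35; 929 and 1291 UMIs) against -1.06 (-1.17 to -0.94). Low members and members not low had nearly the same ratio, -0.37 and -0.41 in Gata3KO and -0.44 and -0.50 in Wt. Barcodes just short of the threshold had -0.06 in Gata3KO (-0.55 to 0.43) and -0.76 in Wt (-1.02 to -0.51), so the ratio did not set members apart from these in both libraries. Dendritic barcodes, which should lack muscle genes, had -3.94 in Gata3KO (5 developmental and 77 adult UMIs) and -2.96 in Wt (38 and 295 UMIs), so genes of the adult list were counted in non-muscle cells, and their part in the ratio of the other eligible barcodes was not tested. Dystrophin-complex and membrane genes, several of which other cells also express, took 0.81% of panel UMIs in Gata3KO members against 10.49% in the other eligible barcodes. At 100 or more rule-gene UMIs per 10000, the 3 Gata3KO members left gave 0.06 (-0.44 to 0.57), a change of sign within counting error.

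To give the background of muscle genes in other cells, each barcode was thinned to 1000 UMIs and compared with dendritic cell barcodes (*Ccr7* and *Fscn1* UMIs, or over 1 UMI of *Cd209a*), which should lack muscle genes. *Acta1*, which chose the members and so had to differ, had a UMI in 77.8% of Gata3KO members, 4.37% of other eligible barcodes and 1.49% of dendritic barcodes, and in 77.45% of Wt members, 10.6% of others and 1.45% of dendritic barcodes. Of genes outside the rule, the fast troponin *Tnnt3* had a UMI in 48.15% of Gata3KO members, 1.53% of others and 0 of 67 dendritic barcodes (upper bound 5.36%), and in 34.3% of Wt members, 3.50% of others and 0.72% of dendritic barcodes. *Myl4* had one in 33.3, 1.249 and 1.49% in Gata3KO and in 34.3, 3.34 and 2.90% in Wt, and *Ttn* in 14.8, 1.94 and 0% in Gata3KO and in 11.8, 2.37 and 0% in Wt. These genes come from the barcodes that the rule picked for muscle RNA, so their shares are a description. The dendritic barcodes were deeper before thinning (median 9157 UMIs in Gata3KO and 8605.5 in Wt, against 3075 and 2767.5 in members), and 8 Wt members under 1000 UMIs were left out. Without thinning, the *Acta1* shares were 96.3, 17.4 and 5.88% in Gata3KO and 94.55, 26.3 and 12.3% in Wt.

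For 3 of 4 myeloid genes, which the rule did not use, members had a UMI about as often as the other eligible barcodes or more often. *Lyz2* had a UMI in 88.9% of Gata3KO members against 87.4% of other eligible barcodes and 52.2% of dendritic barcodes, and in 73.5% of Wt members against 76.2% and 41.3%. *C1qa* had one in 66.7% of Gata3KO members against 47.0% and 8.955%, and in 47.1% of Wt members against 44.6% and 9.42%. *Ptprc* stood at 66.7% against 55.1% and 67.2% in Gata3KO and 62.75% against 60.4% and 64.5% in Wt. The fourth, *Itgam*, had a UMI in 0 of 27 thinned Gata3KO members (upper bound 12.8%) against 18.7% of the other eligible barcodes, and in 7.84% of Wt members against 12.02%. Unthinned, *Itgam* had a UMI in 33.3% of Gata3KO members against 58.8% of the deeper other barcodes.

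Several macrophage programmes stood lower in members than in the other eligible barcodes, which were deeper. The part of depth and of mitochondrial share in this was not tested. A low myeloid level was not particular to members. The median of the myeloid identity genes was 157.4 UMIs per 10000 in Gata3KO members and 136.1 in Wt members. In the other eligible barcodes it was 223.5 and 165.8. Barcodes over the mitochondrial limit had 132.5 and 116.1, and barcodes just short of the muscle threshold 176.6 and 163.7. *Lyz2* was at 5873 CPM in Gata3KO members against 11148 CPM in the other eligible barcodes and at 3332 against 6606 CPM in Wt. The cathepsin *Ctss* was at 2024 against 4090.2 CPM and at 1876 against 3074 CPM, *C1qb* at 1601 against 3252 CPM and at 2054 against 2958 CPM. The leukocyte lysosomal protein *Laptm5* was close in the groups, at 1547 against 1428 CPM and at 1264 against 1429.9 CPM, and *Cx3cr1*, the fractalkine receptor and Cre driver, was higher in members, at 621 against 376 CPM and at 372 against 239 CPM. Genes of lipid-handling macrophages were low in members apart from *Apoe* (23806 against 20431 CPM and 18724 against 15862 CPM): *Spp1* was at 603 against 3019 CPM and at 415 against 1357 CPM, *Gpnmb* at 594 against 2045 CPM and at 310.4 against 747 CPM, and *Fabp5* at 459 against 2982 CPM and at 705 against 1826 CPM. Lysosome genes followed, with *Ctsb* at 4083 against 8066 CPM in Gata3KO and 2997 against 4745 CPM in Wt.

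Receptors that engulf dead cells did not stand higher in members. Their list summed to 2518 CPM in Gata3KO members against 2682 CPM in the other eligible barcodes and to 1574 against 1694 CPM in Wt. *Lrp1*, a scavenging receptor, was at 567 against 557 CPM and at 296 against 309.8 CPM, *Stab1* at 477 against 445 CPM and at 319 against 245 CPM, and *Axl* at 98.9 against 106 CPM and at 152 against 166 CPM. *Cd36* was lower in members, at 54.0 against 225 CPM and at 22.6 against 123 CPM, and *Timd4*, *Mfge8* and *Itgb3* had no UMI in members. S phase genes were at 26.98 against 140.5 CPM in Gata3KO, with 3 UMIs in members. In Wt they were at 118.5 against 149 CPM, with 13 of the 42 member UMIs in the deepest member. G2 and M phase genes were at 207 against 323 CPM and 141 against 380.1 CPM. The cell cycle inhibitor *Cdkn1a*, which myoblasts switch on as they stop dividing, was at 477 against 218 CPM and at 398 against 132 CPM. Whether members had left the cell cycle was not tested.

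Genes of other cell types were scarce, apart from *Acta2*. Members held 1 UMI of endothelial genes in Gata3KO and 10 in Wt, of 7 such genes searched for. T, NK and B cell genes had 6 UMIs in 6 Gata3KO members and 43 in 31 Wt members, with *Cd3d* and *Trbc2* at 0. Fibroblast genes outside the rule had 22 UMIs in 11 Gata3KO members, up to 9.09 per 10000 in 1 member, and 52 UMIs in 36 Wt members, up to 19.4 per 10000. They stood at 198 CPM in Gata3KO members against 20.9 CPM in the other eligible barcodes and at 147 against 102 CPM in Wt, with *Pdgfra* and *Lum* at 0 in members and *Sparc* holding 11 of the 22 and 21 of the 52 UMIs. Smooth muscle and pericyte genes stood out, at 513 CPM in Gata3KO members against 14.4 CPM and at 559 against 20.4 CPM in Wt, nearly all of it *Acta2* (449.7 and 511 CPM, in 17 and 56 members), a smooth muscle actin close in sequence to the actins of the rule; *Tagln*, another smooth muscle gene, stood at 54.0 and 39.5 CPM. *Acta2* was highest in low members, at 1590.1 CPM in Gata3KO and 1510.3 CPM in Wt. The part of smooth muscle cells in this was not tested.

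Of 505 genes with at least 100 UMIs over all members, 32 (6.34%) were over 2-fold higher in members than in the other eligible barcodes in both libraries. Of 2607 genes with at least 50 CPM in the other eligible barcodes of each library, 148 (5.68%) were over 2-fold lower in members in both. Each gene set was filtered on the group in which its called genes are high, so the shares are not of a common set. Most of the highest genes outside the lists encode muscle or cytoskeletal proteins. The slow troponin T *Tnnt1* had log2 ratios of 5.34 in Gata3KO (4.82 to 5.84) and 5.20 in Wt (4.88 to 5.52), standing at 405 against 9.97 CPM and at 502 against 13.7 CPM. The small heat shock proteins of muscle *Cryab* and *Hspb1* had 4.91 and 5.30 in Gata3KO and 4.77 and 3.24 in Wt. The alpha tubulin *Tuba1a* (2.81 and 2.56), the beta tubulin *Tubb6* (1.74 and 2.58), the tubulin-processing partner *Svbp* (1.86 and 1.70), the membrane-bending protein *Bin1* (1.52 and 1.75) and the mitochondrial nucleotide carrier *Slc25a4* (1.14 and 1.60) followed. *Ppp1r14b* (1.36 and 1.83), *Pmepa1* (1.62 and 1.26), the actin-binding *Tmsb10* (0.91 and 1) and *Ms4a14* (2.17 and 0.90) complete the 12 named by rank.

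The 12 lowest genes outside the lists had varied functions. The chemokines *Ccl9* (-3.51 in Gata3KO and -2.84 in Wt) and *Ccl6* (-3.02 and -3.13) and the neutrophil attractant *Cxcl2* (-2.10 and -1.97) were among them, with *Crip1* (-2.66 and -2.20), the actin-capping *Capg* (-2.29 and -2.02), *Sh3bgrl3* (-2.11 and -1.71), *Emb* (-2.52 and -2.34), the purine enzyme *Pnp* (-2.34 and -1.89), the cyclin *Ccnd1* (-1.73 and -2.18), *Ggh* (-1.79 and -1.72), *Cers2* (-1.76 and -1.71) and *Sec61b* (-1.70 and -1.82). *Crip1* had the most counts among them, at 126 against 798 CPM in Gata3KO and at 262 against 1205 CPM in Wt. With 2 UMIs each in Gata3KO members, the Gata3KO intervals ran from -6.56 to -1.66 for *Ccl9*, -6.07 to -1.17 for *Ccl6* and -5.57 to -0.67 for *Emb*. With 3 UMIs each, they ran from -4.01 to -0.18 for *Ccnd1*, -4.07 to -0.24 for *Ggh* and -4.04 to -0.21 for *Cers2*.

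Gata3KO members were then set against Wt members, as in the study's own contrast. Among 505 genes that reached 50 CPM in either library and 100 UMIs in all, 23 (4.55%) were over 2-fold higher in Gata3KO members and 34 (6.73%) over 2-fold lower, with a median log2 ratio of -0.07 over all 505. The counting interval left out 0 for 88 genes that were higher and 114 that were lower. Of the called genes, 21 of the 23 and 33 of the 34 had the same direction in the other eligible barcodes of the same 2 libraries. The share with the same direction over all 505 genes is not given here, so these counts have no background and are a description. The deepest Gata3KO member alone supplied 17.2% of Gata3KO member UMIs; without it, 17 of the 23 genes and 28 of the 34 stayed past 2-fold.

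Interferon response genes were lower in Gata3KO members. Their list summed to 486 CPM in Gata3KO members and 2703 CPM in Wt members, a log2 ratio of -2.48 (-2.90 to -2.08), and 3 of 3 genes that passed the filter were over 2-fold lower. The ratio in the other eligible barcodes was -2.22. *Ifi27l2a* stood at 225 CPM in Gata3KO members (a UMI in 11 of 27) and 1995 CPM in Wt members (in 96 of 110), a log2 ratio of -3.15 (-3.79 to -2.58), against -1.53 in the other barcodes. *Isg15*, a ubiquitin-like modifier, stood at 36.0 and 336 CPM (-3.22), *Irf7*, the interferon regulatory factor, at 162 and 889 CPM (-2.46), and the antiviral *Ifitm3* and *Bst2* at 126 and 756 CPM (-2.59) and at 117 and 581 CPM (-2.31). *Rnf213* and *Ifi203* (both -2.56), *Ly6a* (-2.34), the Fc receptor *Fcgr1* (-2.28) and *Ms4a4c* (-4.23, -7.30 to -2.35, with 2 UMIs in Gata3KO members) were lower too. Of the Wt UMIs, up to 109 of *Ifi27l2a* and 97 of *Ifitm3* came from 1 member.

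Genes higher in Gata3KO members were led by *Gdf15*, a stress-induced cytokine, at 1016 CPM in Gata3KO members and 98.75 CPM in Wt members, a log2 ratio of 3.36 (2.80 to 3.95) against 1.81 in the other eligible barcodes. The deepest Gata3KO member held 59 of its UMIs, and without that barcode the ratio was 2.57 (1.93 to 3.23). The others were the amino acid transporter subunit *Slc3a2* (1.65), the initiation factor *Eif5* (1.59), the stress gene *Gadd45b* (1.55), the NF-kB inhibitor *Nfkbia* (1.54), the oxidative stress factor *Nfe2l2* (1.5), the prostaglandin D synthase *Hpgds* (1.40), the mRNA decay factor *Zfp36* (1.34), *Ahnak* (1.30) and *Ier3* (1.30). Each was also higher in the other eligible Gata3KO barcodes, by 0.40 to 1.55. Without the deepest member they ran from 0.96 for *Zfp36*, under 2-fold, to 1.63 for *Slc3a2*. Early-response and heat shock genes summed to 5279 CPM in Gata3KO members and 2974 CPM in Wt members (0.83, 0.68 to 0.97), with 4 of 7 over 2-fold higher, and to 0.64 without the deepest member. Such genes also respond to tissue dissociation, whose part was not tested.

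The muscle level of members, Gata3KO over Wt, turned on the 7 Wt members above 200 per 10000, a level no Gata3KO member reached. Over all members the rule genes had a log2 ratio of -0.56 (-0.69 to -0.43), developmental sarcomere genes -0.48 (-0.70 to -0.26), adult fast fibre genes -0.56 (-0.75 to -0.37) and sarcomere genes of any stage -0.63 (-0.82 to -0.45). Over the 27 Gata3KO and 103 Wt members below 200 per 10000, the same lists had 0.19 (0.05 to 0.33), 0.36 (0.11 to 0.59), 0.29 (0.08 to 0.50) and 0.15 (-0.05 to 0.34). This comparison was added after the data were seen. The direction turned, but the cut left out the 7 highest Wt members and no Gata3KO member. For the rule genes it could therefore only raise the ratio. The median per barcode was also higher in Gata3KO members for rule genes (41.75 against 35.3 per 10000) and panel genes (55.8 against 51.7). With no collagen limit the median gene of the rule list turned too, to 0.41 against -0.65. This median is another measure than the summed ratios above, taken over genes of at least 50 CPM in either library with 1 CPM added. Lifting the collagen limit added 1 barcode per library. The added Gata3KO barcode held 81952 UMIs, 1818 of them of the rule genes, against 111189 and 593 in the 27 Gata3KO members together. Over all members, among genes that passed the filter, 0 of 4, 1 of 4, 1 of 5 and 0 of 4 were over 2-fold lower and none of them was over 2-fold higher. In the other eligible barcodes the same lists had -1.27, -1.29, -0.96 and -0.95. The imprinted genes had -1.32 (-1.80 to -0.87), and -0.70 (-1.20 to -0.23) below 200 per 10000, with *H19* at 216 CPM in Gata3KO and 660.2 CPM in Wt members. Fusion genes had -0.26 (-0.77 to 0.23) and satellite cell and myoblast genes 0.02 (-0.92 to 0.89), which leaves a difference either way not detectable at this depth. Since members are picked by their muscle level, these ratios concern barcodes above a common threshold.

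The myeloid identity, lipid-handling and lysosome lists of members depended on the deepest Gata3KO barcode. Myeloid identity genes had a log2 ratio of 0.15 (0.08 to 0.22) with it and -0.25 (-0.34 to -0.17) without it (0.04 below 200 rule-gene UMIs per 10000), lipid-handling genes 0.31 (0.25 to 0.37) and -0.21 (-0.28 to -0.13), and lysosome genes 0.19 (0.11 to 0.27) and -0.06 (-0.16 to 0.03). In the other eligible barcodes they had 0.32, 0.52 and 0.59. Efferocytosis genes had 0.68 (0.47 to 0.89) with it and 0.70 without it. MHC class II genes, which present antigen, had -0.35 (-0.48 to -0.23), and -0.51 without it, against -1.27 in the other eligible barcodes. Only the Gata3KO barcode was left out for these values. The deepest Wt member, which held 1174 of the 6423 myeloid UMIs of Wt members, stayed in. The cut was thus made on 1 side, and ratios without both barcodes were not computed.

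**Figure D5:**
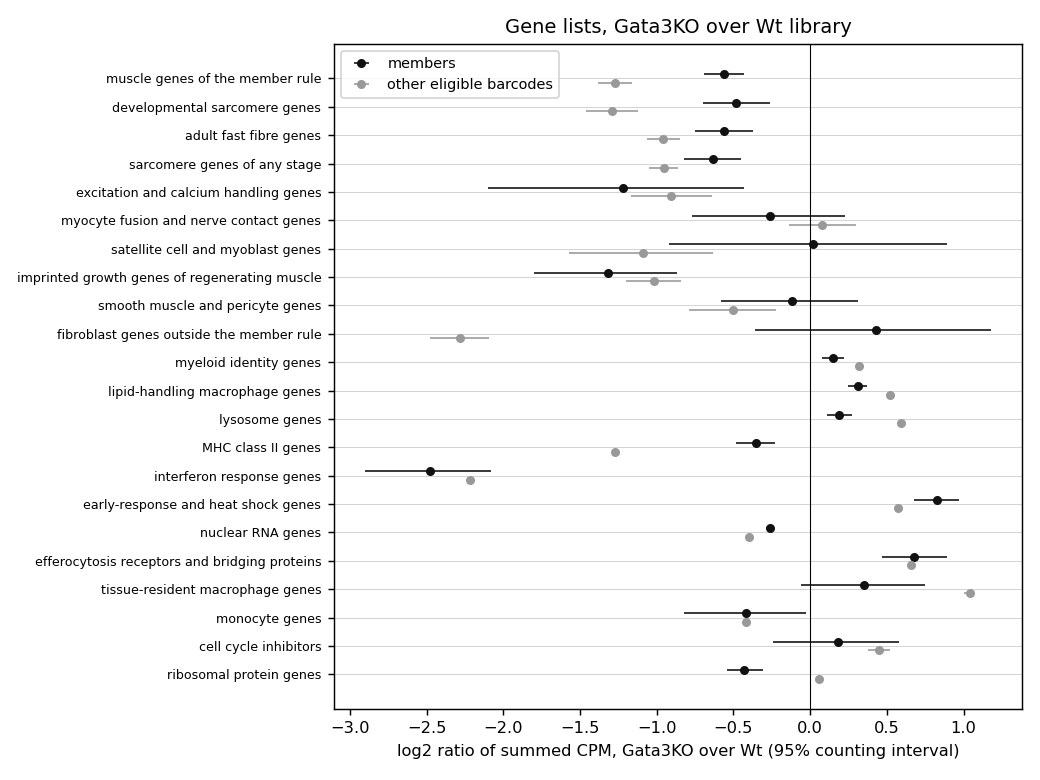
Points give the log2 ratio of summed CPM, Gata3KO over Wt, for 22 gene lists, in members and in the other eligible barcodes, with 95% counting intervals. Interferon response genes lie farthest to the left in members, at -2.48, and early-response genes lie to the right, at 0.83.

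Among barcodes that the rule left out for collagen were some with muscle RNA and, per 10000 UMIs, less myeloid RNA than any member. The 1 Gata3KO barcode that met the muscle threshold but not the collagen limit held 81952 UMIs over 7055 genes, with 527 UMIs of *Myog*, 511 of *Acta1*, 421 of *Ttn*, 113 of *Chrna1*, 97 of *Myod1* and 49 of *Mymk*, and 17 myeloid UMIs (2.07 per 10000). Its 222 rule-gene and 345 panel UMIs per 10000 lay above the leading Gata3KO member's 198 and 242. It exceeded the limit with 5 collagen UMIs, which at its depth is 0.61 per 10000. The corresponding Wt barcode held 39911 UMIs, with 148 UMIs of *Ttn*, 72 of *Myog* and 15 of *Myod1*, 16 myeloid UMIs (4.01 per 10000) and 13 collagen UMIs. Its 72.9 rule-gene and 195 panel UMIs per 10000 lay below the leading Wt member's 470.3 and 715. A further Wt barcode of 122316 UMIs held 1189 panel UMIs, 55 of them *Myod1*, and 92 of *Myog*, but stayed under the muscle threshold at 10.6 rule-gene UMIs per 10000. Members low in myeloid transcripts had more myeloid RNA for their depth than these 3 barcodes, at 7.24 per 10000 or above, and were 2315 to 9505 UMIs deep. In counts these 3 barcodes held 17, 16 and 37 myeloid UMIs, while members held as few as 14 in Gata3KO and 2 in Wt.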

How the data were processed

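The authors deposited 1 table per library of raw UMI counts per gene and barcode, unnormalized, with each listed gene seen in 5 or more barcodes. The build was mm10, and the tools named were Seurat 3.0.2, R 3.6.1 and Cell Ranger 3.0.1, per the submitters' processing notes. Neither settings nor filters on barcodes are stated in the sources used here. Libraries were Single Cell 3' v3, per the labels' protocols.

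The members and the gene lists were chosen with earlier results of these data known. The member rule was applied to the deposited counts of each barcode. UMIs of each gene were summed per group and scaled by the group's total UMIs (CPM); ratios between libraries use the 13289 genes in both tables. Each genotype has 1 library, so nothing was tested: sums have exact Poisson intervals, shares Clopper-Pearson intervals, and log2 ratios exact conditional binomial intervals, all at 95% and for counting error only; the difference of shares has an interval built from Wilson limits. UMIs are deduplicated molecules. Sums under 3 counts were set to this floor, over the group, before a gene was called past 2-fold. Shares with a UMI were thinned to 1000 UMIs per barcode. No doublet caller was run.

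Named are the rule genes, *Ttn*, *Gata3* and *Cx3cr1*, leading genes and genes at 0 of each of 33 lists, the 12 genes outside all lists ranked highest and the 12 ranked lowest for members over others by the weaker of both libraries, and 10 each way for Gata3KO over Wt; *Mymk*, *Chrna1*, *Acta2* and genes of single barcodes were singled out after their values were seen. Calculations were tested on simulated libraries. Gene positions are from GENCODE M21 (mm10). Versions were Python 3.11.15, numpy 2.4.6, pandas 2.3.3, scipy 1.17.1 and matplotlib 3.10.9.

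Alternatives were other mitochondrial, muscle and collagen limits, a depth minimum, other denominators, percentiles, filters and weightings. A denominator without nuclear RNA, a comparison with barcodes over 10% mitochondrial UMIs, leaving out the deepest Gata3KO barcode, and leaving out members above 200 per 10000 were added after seeing the data.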

Additional observations from a re-analysis of the deposited data

Results flagged for a closer look

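Muscle RNA above the member threshold also lay in barcodes outside the comparisons. Of barcodes over the mitochondrial limit, 75 of 1935 in the Gata3KO library (3.88%, exact interval 3.06 to 4.84%) and 141 of 1250 in the Wt library (11.3%, 9.58 to 13.2%) met it, more barcodes than there are members, and 8 of the 75 and 25 of the 141 were low in myeloid transcripts. Of barcodes over the collagen limit, 1 of 9 in Gata3KO and 1 of 18 in Wt met it; their values close the account of the members.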

How the results depend on the processing

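The share of members stayed lower in Gata3KO under each alternative; its difference was -8.11 points at a threshold of 10 per 10000, -0.98 at 50, -0.74 at 100, and -5.04 with mitochondrial and ribosomal protein genes out of the denominator. Members numbered 59 in Gata3KO and 244 in Wt at 10 per 10000, 12 and 36 at 50, 3 and 19 at 100, 1 and 28 at a mitochondrial limit of 10%, and 102 and 251 with none. Members low in myeloid transcripts were 66.7% in Gata3KO and 31.6% in Wt at 100 per 10000, 19.4% in Wt at 50, 0% and 17.9% at a mitochondrial limit of 10%, and 0% and 3.64% with the 1st percentile. Median myeloid UMIs per 10000 of members were 60.5 in Gata3KO and 89.7 in Wt at 100 per 10000, 117 in Wt at 50 and with no mitochondrial limit (117.3 and 116.8), and 436 in the 1 Gata3KO member at a limit of 10%. The developmental to adult log2 ratio of Gata3KO members changed sign at 100 per 10000, to 0.06 (-0.44 to 0.57), over 3 barcodes.

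Genes over 2-fold higher and lower in Gata3KO members numbered 39 and 63 at 10 per 10000, 7 and 21 at 50, 4 and 19 at 100, 15 and 18 at a mitochondrial limit of 10%, 44 and 56 with none, and 2087 and 3375 with no filter on low values. Those higher numbered 14 without the deepest Gata3KO barcode, 15 below 200 per 10000, 13 at a collagen sum of 0 and 78 with no collagen limit. There the median gene ratio of the imprinted list, which is not its summed ratio, turned to 1.16 against -1.01. With no collagen limit, 1 Gata3KO barcode of 81952 UMIs joined 27 members that held 111189 UMIs together. Of 267 list values over 17 lists and 16 settings, 237 kept their sign and 222 stayed within 1.5-fold. Except for the number of barcodes left at the stricter limits and of genes left by the filter, the cause was not tested. No paired analysis was possible because each genotype has 1 library. Depth limits statements on genes with a few UMIs in members.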
